A study of Equus asinus with 12 samples.

Results

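COMMD1, BTBD9 and KIAA0513 are 3 protein-coding genes of the donkey (Equus asinus), followed here in 2 skeletal muscles of 2 strains of the Dezhou breed. In the row chosen for each gene, the mean levels of the 2 muscles had opposite order in the 2 strains. For KIAA0513 the muscles overlapped in the Sanfen strain, and for BTBD9 the description rests on 1 of 8 rows of its name. Each gene is followed through 1 main row of the deposited table, which is MSTRG.11045 for COMMD1, MSTRG.17653 for BTBD9 and MSTRG.22 for KIAA0513, out of 27084 rows (loci) in all. A further 8 rows carry 1 of these names, 1 of them COMMD1 and 7 of them BTBD9, so that 11 rows belong to the 3 genes, and 10 of the 11 reached the level needed for testing (1 FPKM in at least 3 libraries). The main rows were picked for a muscle contrast that depended on strain in earlier results of these same libraries. Their levels are therefore given as a description without a test, and tests are kept for rows that the choice did not use.

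The study compared the strains Wutou and Sanfen in gluteal muscle, the mass of the hip and rump, and in longissimus dorsi, which runs along the spine. There were 3 libraries each of Wutou gluteal, Wutou longissimus, Sanfen gluteal and Sanfen longissimus muscle, all from donkeys 24 months old, with RNA taken from frozen whole tissue and no treatment named in the labels. The design text speaks of 6 donkeys, the labels do not say which library came from which animal, and p-values here measure the spread between libraries of a group, which may be partly technical. Values are FPKM, a fragment count scaled to transcript length and library size.

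COMMD1 is the founding member of the COMM domain proteins, which sit in the CCC complex with CCDC22 and CCDC93 and, together with retriever and the WASH complex, return membrane proteins from endosomes to the cell surface. The copper pumps ATP7A and ATP7B are among the proteins handled this way, loss of COMMD1 causes copper storage disease of the liver in dogs, and the protein also limits NF-kB by promoting the breakdown of RELA. BTBD9 carries a BTB domain, through which such proteins hand targets to the CUL3 ubiquitin ligase. In humans its gene is associated with restless legs syndrome, and work in flies and mice ties it to iron balance and dopamine. KIAA0513 is a cytoplasmic protein of largely unknown function, best known from brain, with binding partners reported from yeast two-hybrid screens.

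The libraries had the make-up of skeletal muscle. Of 18 muscle markers 16 had a row, among them ACTA1, the actin of the thin filament, at 8714 to 13587 FPKM and CKM, the muscle creatine kinase, at 5666 to 10173 FPKM over the 12 libraries, while TNNT3, the fast troponin T, stayed at or below 5.43 FPKM in each of its rows. MYH1, MYH7, CD68, HBA and HBB were not analysed here because no row bears their name. Summed immune markers came to 3.16 to 8.21 FPKM and the erythroid marker ALAS2 to at most 0.176 FPKM. FPKM summed over all rows ran from 214560 to 319770 per library. The scaling factors that would equalise the typical locus were 0.974 to 1.01 in Wutou gluteal, 0.911 to 0.939 in Wutou longissimus, 0.992 to 1.17 in Sanfen gluteal and 0.961 to 1.06 in Sanfen longissimus libraries. Read numbers per library are not known, and no counting error can be attached to a value.

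COMMD1 was highest in Sanfen gluteal muscle and lowest in Sanfen longissimus, with both Wutou muscles between them. In Wutou it was listed at 3.81, 4.20 and 3.27 FPKM in the gluteal libraries, against 4.72, 6.44 and 4.32 FPKM in the longissimus libraries. In Sanfen it was listed at 10.0, 9.99 and 7.35 FPKM in gluteal, against 2.90, 2.80 and 2.62 FPKM in longissimus muscle. No group overlapped its neighbour in this order, though the gap between the lowest Wutou longissimus library (4.32 FPKM) and the highest Wutou gluteal library (4.20 FPKM) was narrow. Group means (mean ± SD, n = 3) were 3.76 ± 0.466 FPKM in Wutou gluteal, 5.16 ± 1.13 FPKM in Wutou longissimus, 9.13 ± 1.54 FPKM in Sanfen gluteal and 2.78 ± 0.143 FPKM in Sanfen longissimus muscle. The gluteal level was thus 3.29 times the longissimus level in Sanfen and 0.729 times the longissimus level in Wutou.

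With levels taken as log2(FPKM + 1), a scale that understates the differences of low genes, gluteal minus longissimus was -0.36 in Wutou (SE 0.17) and 1.41 in Sanfen (SE 0.17). Leaving out the second Wutou longissimus library brought the Wutou value to -0.22. Between strains, COMMD1 was lower in Wutou gluteal muscle (-1.08, SE 0.17) and higher in Wutou longissimus muscle (0.69, SE 0.17). In bulk tissue, fewer cells of a type and less RNA per cell cannot be told apart. Summed slow fibre markers, for which 6 of 7 had a row and none was at 0 throughout, ran from 2093 to 2470 FPKM in Wutou gluteal, from 2051 to 3633 in Wutou longissimus, from 3416 to 7001 in Sanfen gluteal and from 1805 to 4725 in Sanfen longissimus libraries. Their part in the COMMD1 levels was not tested.

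**Figure D1:**
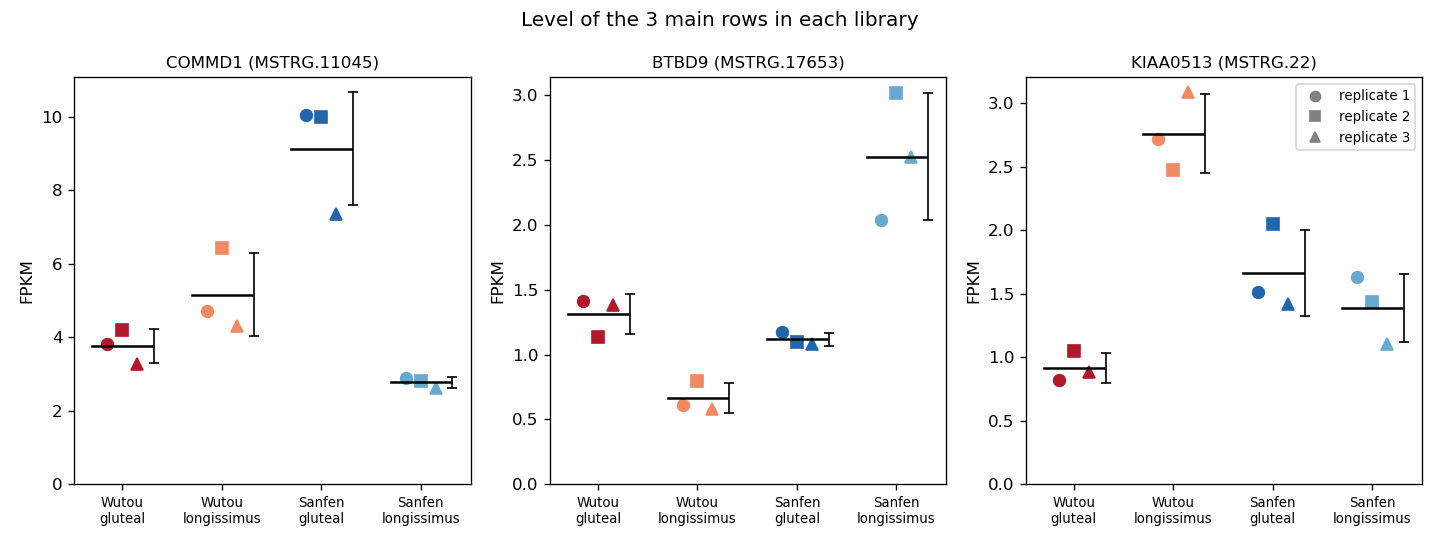
FPKM of COMMD1, BTBD9 and KIAA0513 on the vertical axes, with 1 symbol per library and the 4 groups on the horizontal axis; lines are group means and error bars 1 SD (n = 3). COMMD1 peaks at 9.13 FPKM in Sanfen gluteal, BTBD9 at 2.52 FPKM in Sanfen longissimus and KIAA0513 at 2.76 FPKM in Wutou longissimus muscle.

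BTBD9 ran the opposite way. It was highest in Sanfen longissimus muscle, lowest in Wutou longissimus, and overlapped between the strains in gluteal muscle. The Wutou gluteal libraries listed 1.41, 1.14 and 1.38 FPKM, against 0.609, 0.795 and 0.583 FPKM in Wutou longissimus. The Sanfen gluteal libraries listed 1.17, 1.10 and 1.08 FPKM, against 2.04, 3.01 and 2.52 FPKM in Sanfen longissimus. The muscles did not overlap in either strain, while the gluteal values of the strains did. Means were 1.31 ± 0.151 FPKM in Wutou gluteal, 0.662 ± 0.115 in Wutou longissimus, 1.12 ± 0.0493 in Sanfen gluteal and 2.52 ± 0.488 in Sanfen longissimus muscle (SD, n = 3 each).

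The gluteal level of BTBD9 was 1.98 times the longissimus level in Wutou and 0.443 times that level in Sanfen. As log2 differences of gluteal minus longissimus these were 0.48 in Wutou (SE 0.14) and -0.73 in Sanfen (SE 0.14). Wutou minus Sanfen was 0.13 in gluteal (SE 0.14) and -1.08 in longissimus muscle (SE 0.14), so the strains stood apart in longissimus. Summed satellite cell markers, 3 of 3 with a row and none at 0 throughout, ran from 0.596 to 1.49 FPKM in Wutou gluteal, from 0.433 to 0.603 in Wutou longissimus, from 1.22 to 2.14 in Sanfen gluteal and from 1.19 to 2.72 in Sanfen longissimus libraries. Summed adipocyte markers, 5 of 5 with a row and none at 0 throughout, ran from 9.02 to 9.88 FPKM in Wutou gluteal, from 6.47 to 10.3 in Wutou longissimus, from 7.70 to 10.5 in Sanfen gluteal and from 9.78 to 14.6 in Sanfen longissimus libraries. The part of either list in the BTBD9 levels was not tested.

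KIAA0513 stood out in Wutou, where it was high in longissimus and low in gluteal muscle. It was listed at 0.818, 1.05 and 0.888 FPKM in Wutou gluteal, against 2.72, 2.48 and 3.09 FPKM in Wutou longissimus libraries. In Sanfen it was listed at 1.51, 2.05 and 1.42 FPKM in gluteal, against 1.63, 1.44 and 1.10 FPKM in longissimus muscle. The Wutou groups lay on either side of all 6 Sanfen libraries, and the 2 Sanfen groups overlapped. Means were 0.918 ± 0.118 FPKM in Wutou gluteal, 2.76 ± 0.311 in Wutou longissimus, 1.66 ± 0.338 in Sanfen gluteal and 1.39 ± 0.269 in Sanfen longissimus muscle (SD, n = 3 each).

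The gluteal level of KIAA0513 was 0.332 times the longissimus level in Wutou and 1.19 times that level in Sanfen. Gluteal minus longissimus on the log2 scale was -0.97 in Wutou (SE 0.14) and 0.15 in Sanfen (SE 0.14). The Sanfen value was 0.052 without the second gluteal library and 0.23 without the first longissimus library. Wutou minus Sanfen was -0.47 in gluteal and 0.66 in longissimus muscle (SE 0.14 each), so the strain with more transcript depended on the muscle. Summed fast fibre markers, 6 of 6 with a row and none at 0 throughout, ran from 11636 to 17650 FPKM in Wutou gluteal, from 16752 to 18406 in Wutou longissimus, from 8522 to 14902 in Sanfen gluteal and from 5869 to 15340 in Sanfen longissimus libraries. Their part in the KIAA0513 levels was not tested.

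Set side by side, the muscle difference in Wutou minus that in Sanfen was -1.77 for COMMD1 (SE 0.25), 1.20 for BTBD9 (SE 0.19) and -1.12 for KIAA0513 (SE 0.20) on the log2 scale. Summed over all rows of the name, this difference was -1.66 for COMMD1 and 0.23 for BTBD9. COMMD1 and BTBD9 had muscle groups without overlap and of opposite direction in the 2 strains, which 27 of the 12408 tested loci showed (0.218%). A further 0.862% had muscle groups without overlap and of the same direction in both strains, and 43.7% had muscle means of opposite order, overlap allowed. KIAA0513 belonged to this last share, with overlap in Sanfen. Muscle groups without overlap, in either direction, were found for 12.9% of tested loci in Wutou and 7.54% in Sanfen. Strain groups without overlap were found for 10.9% in gluteal and 11.8% in longissimus muscle. Since the genes were chosen on these contrasts, nothing is read from their place among these shares. The within-group SD on the log2 scale was 0.19 for COMMD1, 0.12 for BTBD9 and 0.14 for KIAA0513. In level, COMMD1 averaged 5.21 FPKM over the 12 libraries, BTBD9 1.40 and KIAA0513 1.68, and the median tested locus averaged 1.89 FPKM.

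**Figure D2:**
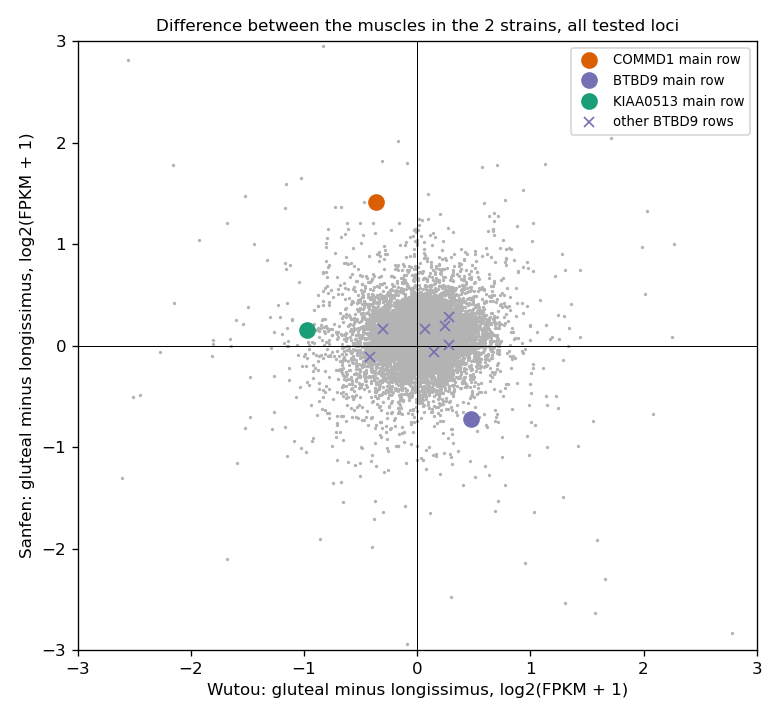
Gluteal minus longissimus on the log2(FPKM + 1) scale in Wutou (horizontal axis) and in Sanfen (vertical axis) for the tested loci (grey), of which 7 lie outside the plotted range. COMMD1 lies at -0.36 and 1.41, BTBD9 at 0.48 and -0.73 and KIAA0513 at -0.97 and 0.15, while crosses mark the 7 other BTBD9 rows.

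The 8 other rows of the same names are assembled loci without a reference transcript, and 7 of them, all named BTBD9, could be tested. Over these 7 rows, which the choice did not use, 0 were called in each of the 5 comparisons (limma on log2(FPKM + 1), Benjamini-Hochberg adjusted p under 0.05 over 12408 loci). At an unadjusted p under 0.05 there was 1 row, MSTRG.17660, lower in Wutou than in Sanfen gluteal muscle (log2 difference -0.50, SE 0.20, adjusted p = 0.963), where 4.86% of tested loci had such a p. Of all tested loci, the muscle comparison called 0% in Wutou and 0.0242% in Sanfen, the strain comparison 0.00806% in gluteal and 0.0161% in longissimus, and the difference between the muscle differences 0.00806%. Gluteal minus longissimus over the 7 rows ran from -0.41 to 0.28 in Wutou and from -0.11 to 0.28 in Sanfen, with a median of 0.15 in Wutou and 0.16 in Sanfen, against 0.05 in Wutou and 0.08 in Sanfen over all tested loci. The row next to the main one, MSTRG.17654, was listed at 0.891, 1.02 and 0.854 FPKM in Wutou gluteal, against 0.534, 0.903 and 0.769 FPKM in Wutou longissimus. In Sanfen it was listed at 1.40, 0.975 and 0.912 FPKM in gluteal, against 1.04, 1.73 and 0.874 FPKM in longissimus muscle, and the muscles overlapped.

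The main row held 19.6% ± 6.92 of the summed BTBD9 FPKM in Wutou gluteal, 11.2% ± 4.54 in Wutou longissimus, 12.3% ± 0.625 in Sanfen gluteal and 26.1% ± 1.68 in Sanfen longissimus muscle (SD, n = 3 each). Summed over its 8 rows, BTBD9 came to 7.20 ± 2.13 FPKM in Wutou gluteal, 6.25 ± 1.42 in Wutou longissimus, 9.09 ± 0.114 in Sanfen gluteal and 9.66 ± 1.69 in Sanfen longissimus muscle. Each row is scaled to its own length, so neither the sum nor the share is a level of the whole gene. The summed muscle difference was 0.16 in Wutou and -0.067 in Sanfen on the log2 scale, smaller in size than the 0.48 in Wutou and -0.73 in Sanfen of the main row. For COMMD1 the second row, MSTRG.11044, did not reach the level for testing. It was listed at 1.20, 0.366 and 0.730 FPKM in Wutou gluteal, 0.564, 0.384 and 0.606 in Wutou longissimus, 0.692, 0.811 and 0.714 in Sanfen gluteal and 0.0106, 0.640 and 0.360 in Sanfen longissimus libraries. The COMMD1 main row held 83.2% to 92.4% of the sum as a group mean, and the summed muscle difference was -0.27 in Wutou and 1.39 in Sanfen.

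**Figure D3:**
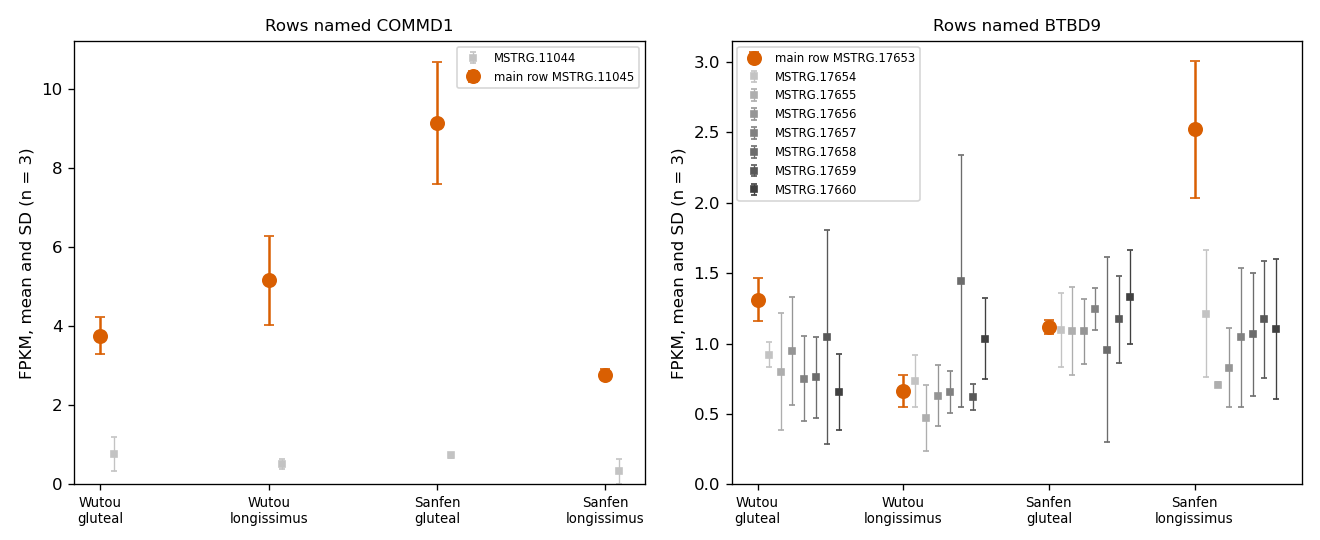
Group means of FPKM with SD (n = 3 libraries) for each row named COMMD1 (left) and BTBD9 (right), with the 4 groups on the horizontal axis; the main row is orange and the others are grey. The BTBD9 main row reaches 2.52 FPKM in Sanfen longissimus muscle, above the group means of the 7 other rows.

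Genes next to the members on the chromosome, taken from the RefSeq annotation of the EquAss-T2T_v2 assembly, were examined because overlapping transcription units can share reads. COMMD1 overlaps B3GNT2 there, a glycosyltransferase gene that in these libraries averaged 0.583 ± 0.0897 FPKM in Wutou gluteal, 0.588 ± 0.0800 in Wutou longissimus, 0.750 ± 0.200 in Sanfen gluteal and 0.431 ± 0.375 in Sanfen longissimus muscle. Reads of overlapping genes cannot be told apart without strand, and the sources used here do not state whether strand was used. On the far side lies CCT4, a subunit of the cytosolic chaperonin, at 23.0 ± 2.66 FPKM in Wutou gluteal, 24.2 ± 2.42 in Wutou longissimus, 22.5 ± 6.75 in Sanfen gluteal and 20.9 ± 7.97 in Sanfen longissimus muscle. The muscle difference at this CCT4 row, MSTRG.11046, was -0.08 in Wutou (limma adjusted p = 0.994) and 0.11 in Sanfen (adjusted p = 1). A second CCT4 row, MSTRG.11047, was listed at 0 to 1.37 FPKM. Its muscle difference was -0.21 in Wutou and 0.19 in Sanfen, and neither passed after adjustment.

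GLO1, the glyoxalase gene beside BTBD9, varied widely between libraries (7.36 ± 5.11 FPKM in Wutou gluteal, 9.44 ± 5.73 in Wutou longissimus, 9.88 ± 5.08 in Sanfen gluteal and 5.01 ± 1.78 in Sanfen longissimus). Its muscle difference was -0.30 in Wutou and 0.75 in Sanfen, and neither passed (limma adjusted p = 0.978 and 1). ZFAND3, a zinc finger gene on the other side of BTBD9, had -0.12 in Wutou and -0.10 in Sanfen (limma adjusted p = 0.965 and 1). LOC106824584, which overlaps an end of BTBD9 in RefSeq, was at most 0.192 FPKM. Beside KIAA0513, the palmitoyltransferase gene ZDHHC7 had a muscle difference of -0.13 in Wutou and -0.32 in Sanfen (limma adjusted p = 0.967 and 1), and CIBAR2 was at most 0.0255 FPKM. TMEM17, beside COMMD1, was at most 0.375 FPKM.

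The protein families and pathways around the members were then read in the same fit, with 100 tested loci of 89 genes over 7 lists. In each of the 5 comparisons 0 of the 100 loci passed after adjustment, beside the shares of all tested loci given above. At an unadjusted p under 0.05 there were 4 of the 100 between muscles in Wutou (5.68% of all tested loci), 3 between muscles in Sanfen (3.57%) and 2 between strains in gluteal (4.86%). There were 6 between strains in longissimus (5.52%) and 0 for the difference between the muscle differences (2.6%). Signs within the lists have to be read beside a shift of the whole table: gluteal minus longissimus was positive for 58.6% of tested loci in Wutou and 67.6% in Sanfen, and for 46.8% in Wutou and 49.3% in Sanfen after median-of-ratios rescaling.

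Of the other COMMD genes, 7 of 9 could be tested, with 8 loci, and COMMD2 and COMMD8 were below the level for testing. Gluteal minus longissimus was negative for 5 of the 8 loci in Wutou (median -0.15, against 0.05 over all loci) and positive for 7 of 8 in Sanfen (median 0.12, against 0.08), where 5 of 8 were positive after rescaling. COMMD3 was the most abundant, with group means of 18.7 FPKM in Wutou gluteal, 20.9 in Wutou longissimus, 18.8 in Sanfen gluteal and 18.4 in Sanfen longissimus muscle. COMMD7 measured 6.90 ± 0.765 FPKM in Wutou gluteal, 8.01 ± 0.654 in Wutou longissimus, 8.66 ± 1.14 in Sanfen gluteal and 7.76 ± 0.476 in Sanfen longissimus muscle, with Wutou minus Sanfen at -0.29 in gluteal muscle (SE 0.15, limma adjusted p = 0.963). COMMD5 had its smallest p between strains in longissimus, at 1.91 ± 0.928 FPKM in Wutou and 1.09 ± 0.767 in Sanfen (limma adjusted p = 0.854). The COMMD10 locus MSTRG.4422, 1 of 10 rows of that name, was at 1.05 ± 0.274 FPKM in Wutou gluteal and 0.485 ± 0.134 in Wutou longissimus muscle (limma adjusted p = 0.870).

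Partners of COMMD1 in endosomal recycling gave no call. Of the 21 tested loci of CCC, retriever and WASH genes, 15 were positive in Wutou (median 0.15; 12 after rescaling) and 18 in Sanfen (median 0.09; 10 after rescaling), and 0 had an unadjusted p under 0.05 in any of the 5 comparisons. CCDC93, the CCC scaffold, was listed at 0.0225, 2.86 and 1.81 FPKM in Wutou longissimus, against 2.38, 3.73 and 2.22 FPKM in Sanfen longissimus libraries at locus MSTRG.13849 (limma adjusted p = 0.854). Wutou minus Sanfen was -0.74 at this locus, and -0.18 without the first Wutou longissimus library. At the other tested CCDC93 loci it was 0.39, 0.31, 0.08, -0.04 and -0.11. WASHC2A, a WASH subunit, measured 2.64 ± 0.437 FPKM in Wutou gluteal and 1.75 ± 0.686 in Wutou longissimus muscle (limma adjusted p = 0.870). CAPZB, an actin capping subunit, had a muscle difference of 0.36 in Wutou and -0.19 in Sanfen. These were 0.54 apart (SE 0.30, limma unadjusted p = 0.0927), which did not pass before or after adjustment.

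In copper handling, 14 of 21 genes were tested, with 5 loci positive and 9 negative for gluteal minus longissimus in Wutou (median -0.04), and 10 positive and 4 negative in Sanfen (median 0.15). After rescaling 3 were positive in Wutou and 9 in Sanfen. ATOX1, the chaperone that passes copper to the ATP7 pumps, was higher in Wutou longissimus, at 9.90, 12.9 and 13.2 FPKM, against 8.55, 4.40 and 7.36 FPKM in Sanfen longissimus libraries. These groups did not overlap, as for 11.8% of tested loci in this comparison, and the difference did not pass (log2 0.77, SE 0.26, limma adjusted p = 0.854). MTF1, the metal-responsive transcription factor, measured 2.28 ± 0.393 FPKM in Wutou gluteal and 1.44 ± 0.275 in Wutou longissimus muscle (limma adjusted p = 0.870). COA6, which helps deliver copper to cytochrome c oxidase, measured 5.08 ± 1.90 FPKM in Sanfen gluteal and 2.68 ± 0.939 in Sanfen longissimus muscle (limma adjusted p = 1).

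In NF-kB signalling, 20 of 21 genes were tested, with 23 loci, of which 17 were positive between muscles in Wutou and 14 in Sanfen, at a median of 0.06 in Wutou and 0.03 in Sanfen. After rescaling 11 were positive in Wutou and 9 in Sanfen, and both medians were below 0. REL, an NF-kB subunit, measured 2.55 ± 0.375 FPKM in Sanfen gluteal and 1.90 ± 0.0993 in Sanfen longissimus muscle (limma adjusted p = 1). Its groups did not overlap, as for 7.54% of tested loci in this comparison. RELB, a subunit of the non-canonical arm, measured 1.26 ± 0.392 FPKM in Wutou and 0.622 ± 0.123 in Sanfen longissimus muscle (limma adjusted p = 0.854). It reached 1 FPKM only in Wutou libraries (1.47 in gluteal, 1.71 and 1.07 in longissimus), and no Sanfen library exceeded 0.701 FPKM. It was thus tested only because it was high in Wutou, and its strain difference is not independent of the filter. TRAF6, the ligase upstream of the IKK complex, measured 2.70 ± 1.04 FPKM in Wutou gluteal and 1.28 ± 0.271 in Wutou longissimus muscle (limma adjusted p = 0.870).

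Around BTBD9, 12 of 19 genes of the BTBD family and the CUL3 ligase core were tested, with 13 loci. The muscle difference was positive for 9 of the 13 in Wutou (median 0.10, against 0.05 over all loci) and for 13 of 13 in Sanfen (median 0.13, against 0.08). After rescaling 7 of the 13 were positive in Wutou and 8 in Sanfen. CUL3, the scaffold of the ligase, was listed at 6.66, 6.68 and 4.69 FPKM in Wutou gluteal, against 4.32, 3.03 and 3.94 FPKM in Sanfen gluteal libraries. These did not overlap, as for 10.9% of tested loci in this comparison, and the difference did not pass (log2 0.55, SE 0.23, limma adjusted p = 0.963). DCUN1D1, which helps attach NEDD8 to cullins, measured 3.96 ± 0.420 FPKM in Wutou gluteal and 2.44 ± 1.01 in Wutou longissimus muscle (limma adjusted p = 0.870). BTBD6 was uneven within Sanfen longissimus, at 4.13, 4.95 and 28.8 FPKM, against which the Wutou longissimus libraries listed 18.5, 25.3 and 36.8 FPKM (limma adjusted p = 0.854).

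In iron handling, 19 of 24 genes were tested, with 14 positive and 5 negative between muscles in Wutou (median 0.12) and 12 positive and 7 negative in Sanfen (median 0.04). After rescaling 11 were positive in Wutou and 8 in Sanfen, where the median was then -0.05. SLC40A1, the iron exporter ferroportin, was lower in Wutou longissimus, at 14.4, 13.7 and 15.7 FPKM, against 22.6, 27.0 and 17.5 FPKM in Sanfen longissimus libraries, without overlap (log2 -0.56, SE 0.22, limma adjusted p = 0.854). SLC25A28, a mitochondrial iron importer, was between 10.1 and 14.03 FPKM in Wutou gluteal, against 16.2, 26.2 and 17.3 FPKM in Sanfen gluteal libraries, without overlap (log2 -0.63, SE 0.23, limma adjusted p = 0.963). Strain groups without overlap were found for 11.8% of tested loci in longissimus and 10.9% in gluteal muscle.

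Of the reported KIAA0513 partners, HAX1 and INTS4 could be tested and WWC1 was below the level for testing. HAX1, a mitochondrial survival factor, measured 17.9 ± 2.74 FPKM in Wutou gluteal, 21.3 ± 2.12 in Wutou longissimus, 16.5 ± 3.82 in Sanfen gluteal and 15.3 ± 3.47 in Sanfen longissimus muscle. Its mean was highest in Wutou longissimus, as for KIAA0513, and second in Wutou gluteal, where KIAA0513 was lowest. Wutou minus Sanfen in longissimus was 0.47 (SE 0.23, limma adjusted p = 0.854), and 0.29 without the second Sanfen longissimus library. INTS4, an Integrator subunit, had its smallest p in the same comparison (-0.19, SE 0.15, limma adjusted p = 0.872). It was -0.29 without the first and -0.05 without the second Sanfen longissimus library.

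**Figure D4:**
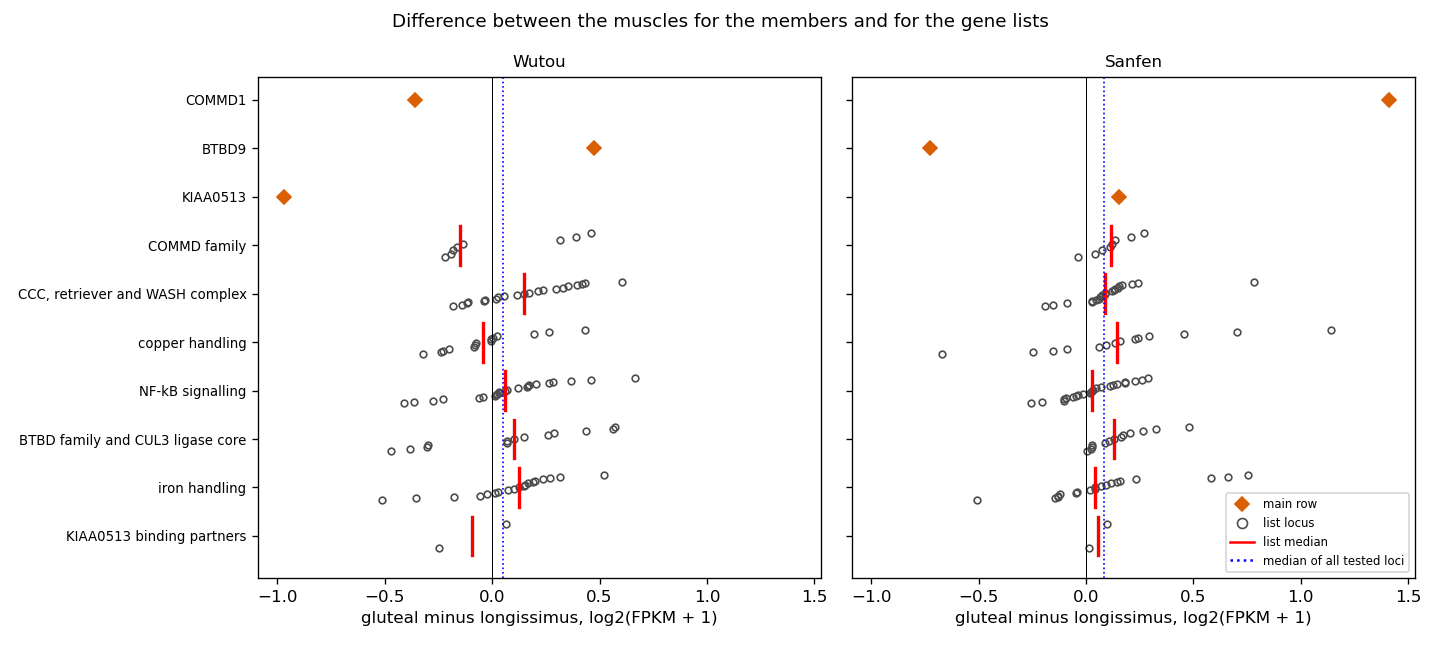
Gluteal minus longissimus on the log2(FPKM + 1) scale in Wutou (left) and Sanfen (right) for the members and for the tested loci of 7 gene lists; red bars are list medians and the dotted line is the median of tested loci (0.05 in Wutou, 0.08 in Sanfen). List medians lie between -0.15 and 0.15, and BTBD9 itself lies at 0.48 in Wutou and -0.73 in Sanfen.

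Loci with the most similar profile were sought over all 12 libraries, by the root mean square difference between log2(FPKM + 1) values after each locus was centred on its own mean. The choice was made among 9782 tested loci with a symbol (9775 for BTBD9), and a flat profile would score 0.55 against COMMD1, 0.40 against BTBD9 and 0.37 against KIAA0513. The 5 nearest to COMMD1 were MED16 (0.25), PRAF2 (0.33), COX7C (0.34), GHITM (0.35) and VCPIP1 (0.35). MED16, a Mediator subunit at locus MSTRG.6126, was listed at 0 in the 3 Wutou gluteal and the 3 Sanfen longissimus libraries, at 0, 1.04 and 0.774 FPKM in Wutou longissimus and at 1.41, 1.31 and 1.22 FPKM in Sanfen gluteal muscle. It reached 1 FPKM only in the Sanfen gluteal libraries and 1 Wutou longissimus library. MED16 thus entered the ranking only through libraries where COMMD1 was high, and its likeness is not independent of the filter. COX7C, a subunit of the copper-containing cytochrome c oxidase whose row took its symbol from RefSeq, was listed at 129, 127 and 120.2 FPKM in Wutou gluteal, against 195, 157 and 143 FPKM in Wutou longissimus. In Sanfen it was listed at 198, 207 and 158 FPKM in gluteal, against 83.5, 52.1 and 78.0 FPKM in longissimus muscle. As for COMMD1, its muscles did not overlap in either strain and had opposite order.

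GHITM, a protein of the mitochondrial inner membrane, averaged 25.5 FPKM in Wutou gluteal, 27.8 in Wutou longissimus, 42.0 in Sanfen gluteal and 26.3 in Sanfen longissimus muscle. The Sanfen gluteal mean rested on 2 libraries at 53.0 and 44.0 FPKM, with the third at 28.9 FPKM. The 5 nearest to BTBD9 were CABLES2 (0.24), ZNF516 (0.26), SHISA5 (0.26), GPRC5B (0.26) and FOXK2 (0.27). FOXK2, a forkhead transcription factor, averaged 3.93 FPKM in Wutou gluteal, 3.67 in Wutou longissimus, 3.62 in Sanfen gluteal and 5.54 in Sanfen longissimus muscle. SHISA5, a protein of the endoplasmic reticulum, averaged 2.67 FPKM in Wutou gluteal, 1.57 in Wutou longissimus, 2.17 in Sanfen gluteal and 2.77 in Sanfen longissimus muscle.

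The 5 nearest to KIAA0513 were BCAP31 (0.24), ZNF76 (0.24), TSC22D3 (0.24), KPTN (0.24) and CD63 (0.25). TSC22D3, a target of glucocorticoid signalling known as GILZ, was listed at 5.48, 6.88 and 4.76 FPKM in Wutou gluteal, against 7.86, 12.2 and 11.1 FPKM in Wutou longissimus. Its Sanfen libraries lay between 6.73 and 10.6 FPKM, and the 2 muscles of Sanfen overlapped. KPTN, part of the KICSTOR complex of amino acid sensing, averaged 3.05 FPKM in Wutou gluteal, 5.15 in Wutou longissimus, 3.58 in Sanfen gluteal and 3.35 in Sanfen longissimus muscle. Among the members themselves, COMMD1 and KIAA0513 differed by 0.55, BTBD9 and KIAA0513 by 0.69, and COMMD1 and BTBD9 by 0.84. With the sign of 1 profile turned round, BTBD9 and KIAA0513 differed by 0.35, COMMD1 and BTBD9 by 0.46, and COMMD1 and KIAA0513 by 0.76. The main rows were chosen for a muscle contrast that depended on strain, so no relation between the genes is read from these values. These likenesses describe the same 12 libraries, whose fibre markers and scaling factors differ as given above, and the lists depend on single libraries: 1 to 5 of the 5 loci for COMMD1, 1 to 4 for BTBD9 and 0 to 4 for KIAA0513 were shared when a library was left out.

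**Figure D5:**
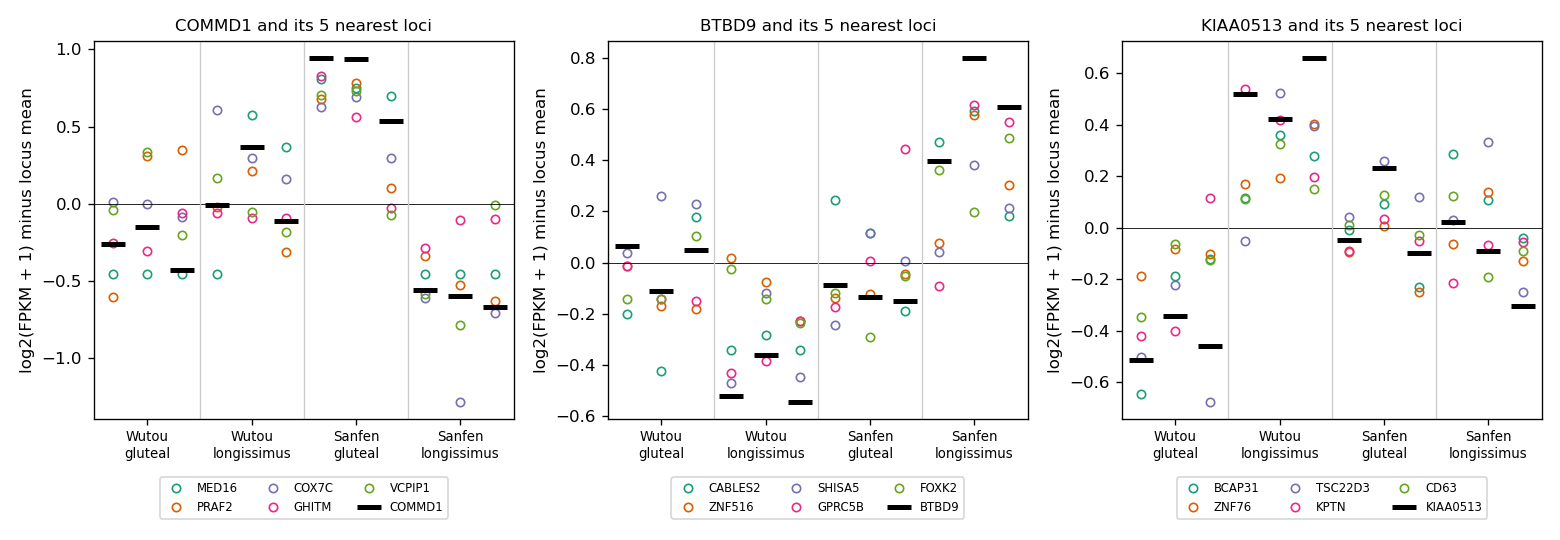
Values of log2(FPKM + 1) minus the locus mean (vertical axes) in the 12 libraries, in replicate order within each group, for each member (black bars) and the 5 loci with the smallest root mean square difference (circles). The MED16 circles in the Sanfen gluteal group and the COX7C circles in the Sanfen longissimus group lie on the same side of 0 as COMMD1. Both loci were picked for likeness to COMMD1 in these same values, so this follows from the choice.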

How the data were processed

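RNA-seq of 12 muscle libraries was deposited by the authors as 1 table of FPKM per locus, per the file headers. The submitters' processing notes name cutadapt, Bowtie2 and TopHat2, and the genome build, the quantifier and any rescaling between libraries are not given in the sources used here. Low values gave a relative depth of 0.911 to 1.05 against 1 library, a weak estimate from 1.70% to 3.25% of ratios. Precision rests on 3 libraries a group.

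The 12408 loci that reached 1 FPKM in 3 or more libraries entered 1 limma model of 4 group means (limma 3.58.1, R 4.3.3). It used log2 values with a pseudocount of 1 and a mean-dependent prior variance. Benjamini-Hochberg adjustment ran over these loci, at 0.05. Besides the 4 pairwise comparisons, the difference between the muscle differences was fitted. In simulated data, 38% to 49% of log2 changes of 1 were called in the pairwise comparisons, and 13% for the difference of muscle differences. For log2 changes of 2 these shares were 79% to 86% and 58%. Per comparison, 6 to 11 unchanged loci were also called. A count of 0 called loci therefore does not show that levels were unchanged. Members and gene lists were chosen with earlier results of these data known. Named were all rows of the 3 names, the 5 nearest loci of each main row, up to 3 genes of each list by smallest p, and chromosomal neighbours; COMMD3 and TNNT3 were named after their values were seen. One iron list gene that the rule names is not reported here. Of 6221 LOC identifiers 3260 matched RefSeq and 1069 took a symbol; 9 older symbols were updated by hand.

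The design text gives 6 donkeys. Deviations from group means of same-numbered gluteal and longissimus libraries correlated at 0.18, 0.16 and 0.07 in Wutou and at 0.25, 0.11 and 0.16 in Sanfen, where each is above 0.1, the bound used here for pairing. Libraries of unlike number correlated at -0.17 to 0.01. Deviations sum to 0 within a group, so these values are not independent of those for the same number. This pairing comes from the values, not the labels. The replicate block was applied to both strains in the muscle comparisons. In the strain comparisons it joined libraries of the same number across strains, which cannot come from 1 animal. The tests given above used no block, so their p-values take no account of any pairing of the muscles within an animal. Alternatives were another pseudocount, other filters, rescaling, the replicate block, summed rows and leaving out each library.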

Additional observations from a re-analysis of the deposited data

Results flagged for a closer look

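For 3 of the loci named here, the muscles did not overlap in either strain and had opposite order, as for 0.218% of the 12408 tested loci. The difference of the muscle differences (Wutou minus Sanfen, log2) was -1.77 for COMMD1, 1.20 for BTBD9 and -1.78 for COX7C. Summed over its 8 rows, BTBD9 had 0.23. COMMD1 and BTBD9 were chosen for this pattern and COX7C for its likeness to COMMD1, so the differences were not tested.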

How the results depend on the processing

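The member differences kept their sign under the pseudocount of 0.1, under median-of-ratios rescaling and without each library. Where groups did not overlap, neither the pseudocount nor leaving out a library could turn the sign, so this is no check of those differences. Among the pairwise differences, only BTBD9 between strains in gluteal and KIAA0513 between muscles in Sanfen had overlap. With the pseudocount of 0.1 the muscle difference was 1.67 for COMMD1 in Sanfen, 0.89 in Wutou and -1.09 in Sanfen for BTBD9, and -1.49 for KIAA0513 in Wutou. The strain differences became -1.78 for BTBD9 in longissimus, and -0.78 in gluteal and 0.95 in longissimus for KIAA0513. The differences of muscle differences became -2.10 for COMMD1, 1.98 for BTBD9 and -1.73 for KIAA0513. With FPKM summed over its rows, BTBD9 had 0.16 between muscles in Wutou, -0.067 in Sanfen, -0.33 between strains in gluteal (main row 0.13), -0.56 in longissimus and 0.23 for the difference of muscle differences. Rescaling set the median of all loci to -0.02 in Wutou and -0.0024 in Sanfen between muscles.

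Counts of called loci were small and moved with most choices. Between muscles in Wutou (0 as reported, with 705 at an unadjusted p under 0.05 in limma), 2 were called after rescaling, and 0 to 2 without each library (2 without Sanfen gluteal 1 or Wutou gluteal 3, 1 without Sanfen gluteal 2 or Wutou longissimus 1). Between muscles in Sanfen (3), there were 5 with no filter, 5 with the pseudocount of 0.1, 1 with the filter at an FPKM of 5, 1 with the replicate block, where the numbers paired the libraries, and 0 to 5 without each library (5 without Sanfen gluteal 1, 0 without Sanfen gluteal 2, 1 without Wutou gluteal 1 or Wutou longissimus 1). Between strains in gluteal (1), there were 0 with the filter at 5, after rescaling or with the pseudocount of 0.1, and 0 to 3 without each library (3 without Sanfen gluteal 1, 2 without Wutou longissimus 1, 1 without Wutou gluteal 3 or Wutou longissimus 2, 0 without any other). Between strains in longissimus (2), there were 4 with no filter, 6 with the pseudocount of 0.1, 0 with the filter at 5, 1 with the replicate block, and 0 to 6 without each library (6 without Sanfen gluteal 1, 3 without Wutou gluteal 2, 2 without Sanfen gluteal 2, and 0 or 1 without any other). For the difference of muscle differences (1), there were 2 with no filter or after rescaling, 0 with the filter at 5, and 1 to 5 without each library (5 without Sanfen gluteal 1, 2 without Wutou longissimus 1). The cause was not tested. The replicate block changed no call of a list locus or a further BTBD9 row. Both counts stayed at 0 under each alternative that tested them; at the filter of 5, 32 list loci and 0 further BTBD9 rows were tested, and summed rows were not applied to either. Of the 20 values of list genes, 6 moved by over 1.5 times without 1 library.

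Of the 5 nearest loci, 2 for COMMD1, 2 for BTBD9 and 3 for KIAA0513 were shared with the pseudocount of 0.1, and 1 to 5, 1 to 4 and 0 to 4 without each library. The list counts and further rows were put through these alternatives after the data had been seen.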
